A study of Rattus norvegicus with 7 samples.

Results

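The collagens and the enzymes that modify them were followed in NRK-52E, a rat kidney line of epithelial cells, on 7 Affymetrix arrays. Members were taken by gene symbol in the platform annotation. They are every symbol of the form Col, a number, a and a number, together with 17 named genes of the lysyl oxidases, the prolyl and lysyl hydroxylases and their helpers. Of 31099 probe sets, 80 met the rule. They stand for 56 genes, of which 41 are collagen chains (58 probe sets) and 15 are enzymes and helpers (22 probe sets). Loxl4 and Pcolce2, also named in the rule, had no probe set under this annotation.

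The series addresses Adamts16, a secreted metalloprotease gene studied for its link to inherited hypertension. Cells were transfected for 48 h with an siRNA against Adamts16 or with a scrambled siRNA, each at 100 pmol per ml. Adamts16-3488 (called siRNA 3488 here) was on 2 arrays, Adamts16-2600 (siRNA 2600) on 2 and the scrambled control on 3, and each array held RNA of an independent culture of this line, per the series design. All groups received a duplex and lipofection reagent, and untransfected cells are not analysed here. The antisense strand of each duplex is shown because the groups differ by it, with the seed (bases 2 to 8) in capitals.
siRNA 3488 antisense: tTTCCGGAgacgtacttct
siRNA 2600 antisense: tTGCGCACagaaatatagg
scrambled control antisense: aTTACCGAgcacattggagg

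Collagens are trimers of chains whose triple helix forms in the endoplasmic reticulum. Prolyl and lysyl hydroxylases modify the chains there and the chaperone Hsp47, the product of Serpinh1, holds the folded helix. After secretion the ends of fibrillar procollagens are cleaved, fibrils assemble and lysyl oxidases crosslink them. In the kidney tubule, type IV collagen forms the network of the basement membrane, while fibrillar types I, III and V are known from the interstitium and from fibrosis.

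Signals are in arbitrary units and had been scaled by the authors to a common array mean. Whether the targeted transcript fell cannot be read here. The 1 probe set of Adamts16 read 12.1 and 40.4 under siRNA 3488, 21.4 and 2.42 under siRNA 2600, and 8.68, 7.18 and 18.9 under the control, all below the filter used for the tests. Across the probe sets that passed this filter, siRNA 2600 replicate 1 correlated more closely with control replicates 1 and 2 (r = 0.985 and 0.984) than with siRNA 2600 replicate 2 (0.98). Of the epithelial markers Krt8, Tjp1 and Ocln passed the filter on low signal, while Cdh1, Epcam, Krt18 and Cldn1 did not. The summed signal of the epithelial markers was 13540 to 14210 under siRNA 3488, 12980 to 13070 under siRNA 2600 and 13040 to 13940 under the control. That of 8 fibroblast markers, of which Pdgfrb and Postn passed, was 4100 to 4449, 4319 to 4767 and 4325 to 4837 in the same groups. The immune markers summed to 483 to 523, 306 to 399 and 356 to 367, and of them Cd68, a macrophage gene, passed the filter and rose under siRNA 3488 (log2 0.67, adjusted p = 0.0141). Their part in the results was not tested. Tek of the endothelial list and Lrp2 and Aqp1 of the 8 kidney tubule markers passed the filter and did not pass the test under siRNA 3488. RNA was pooled over each culture, so fewer cells of a type and less RNA per cell cannot be told apart.

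Among 51 member probe sets of 36 genes that passed the filter, siRNA 3488 was accompanied by higher signals of 3 fibrillar collagen genes, Col1a1, Col3a1 and Col5a2, and of 6 genes that fold, modify or crosslink collagen, Serpinh1, Pcolce, P4ha2, P4ha3, Plod1 and Lox. Their changes lay between 1.18-fold and 1.39-fold. Col12a1 and Col6a6 were lower. By probe set, 11 members passed the test higher and 3 lower, against 6.89% and 8.74% of all probe sets tested. Bright probe sets rose across the array. Of the 9 genes that rose, only Col1a1 and P4ha3 also passed under each of 3 other array scalings. No type IV collagen gene passed the test. With siRNA 2600 no member passed it, against 0.548% of all probe sets tested passing higher and 0.483% lower.

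In limma, with Benjamini-Hochberg adjustment over the 18625 probe sets tested, 11 member probe sets rose and 3 fell under siRNA 3488 at an adjusted p under 0.05, and a probe set past that threshold is named as called from here on. Of all probe sets tested, 6.89% were called higher and 8.74% lower in this comparison. A further 10 members that were not called had an unadjusted p under 0.05, which makes 24 in all. The count of member calls was 6 without siRNA 3488 replicate 2 and 9 without control replicate 1. Over all probe sets tested the count was 2911, against 474 without siRNA 3488 replicate 2, 980, 1335 and 1748 without control replicates 1, 2 and 3, and 3611 at most, without siRNA 2600 replicate 2. The median log2 change was 0.11 over the members and -0.06 over all probe sets tested, and 36 of 51 members lay above 0, against 41.3% of all. The share of probe sets called higher grew with their signal. For probe sets with a mean signal above 16384 the median change of all tested was 0.48, and 100% were called higher. It was 0.34 between 8192 and 16384 (81.0% called higher), 0.16 between 4096 and 8192 (39.4%) and -0.02 between 1024 and 4096 (9.72%). Of the 11 member rises, 8 lay in the 3 brightest of these bands. Col1a1, by both of its probe sets, and P4ha3 rose in a band whose median was near 0. Other quantities moved the same way. For 18 probe sets of spiked-in foreign transcripts, the median log2 distance from the control mean was 0.34 and 0.71 under siRNA 3488, -0.08 and 0.13 under siRNA 2600, and -0.06 to 0.03 under the control. Actin probe sets at the 3′ and 5′ ends of the transcript, whose ratio rises as RNA degrades, had ratios of 1.96 and 1.94 under siRNA 3488, 1.83 and 1.81 under siRNA 2600, and 1.74 to 1.79 under the control. Their part in the collagen results was not tested.

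**Figure D1:**
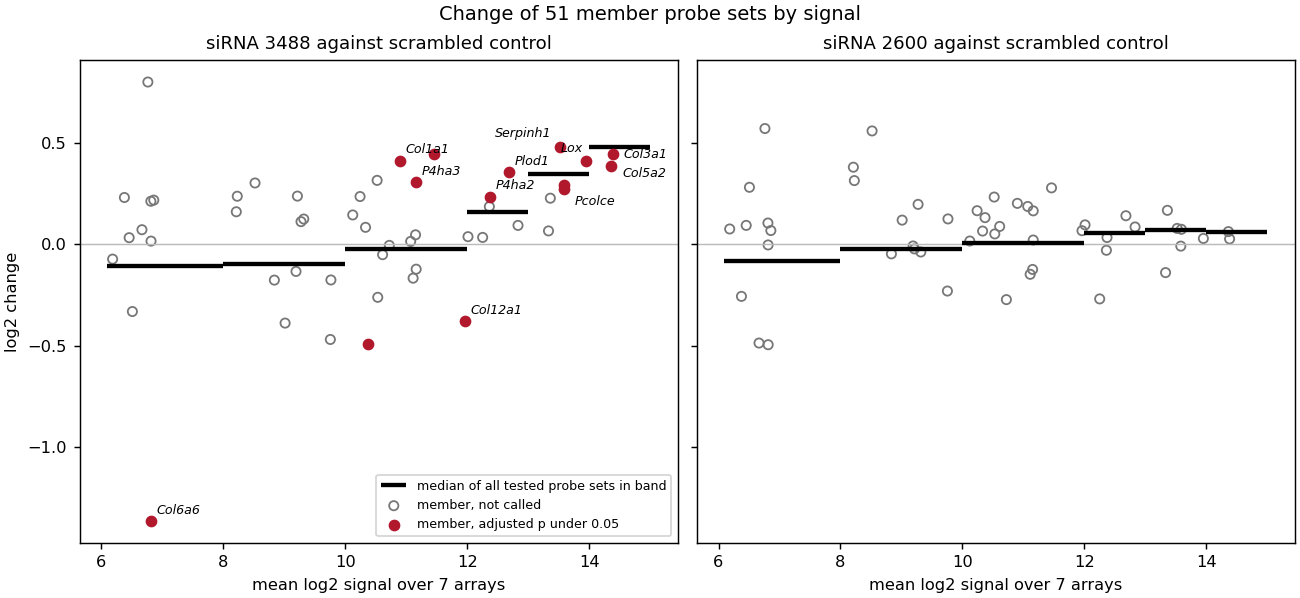
Log2 change (y) against mean log2 signal over 7 arrays (x) for the 51 member probe sets, under siRNA 3488 in the left panel and siRNA 2600 in the right, each against the scrambled control. Filled points passed the test at an adjusted p under 0.05, and black lines are the median of all tested probe sets in bands of signal, which climb to 0.48 under siRNA 3488 and stay between -0.08 and 0.07 under siRNA 2600.

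The fibrillar collagens, the chains of the banded fibrils, held 5 of the 11 rises and 11 of the 51 member probe sets tested. Col1a1, the alpha 1 chain of type I collagen, read 3345 and 3304 under siRNA 3488, 2961 and 2972 under siRNA 2600, and 2358, 2277 and 2735 under the control. The 3 groups did not overlap, and siRNA 3488 was highest and the control lowest. The log2 change under siRNA 3488 was 0.44 ± 0.08 (SE, adjusted p = 0.00795), a 1.36-fold rise. With siRNA 2600 it was 0.28 (adjusted p = 0.139). The other Col1a1 probe set rose by 0.41 (adjusted p = 0.00681) under siRNA 3488 and was at 0.20 under siRNA 2600. Leaving out siRNA 3488 replicate 2 ended the call of the first (log2 0.45, adjusted p = 0.0599).

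Col1a2 encodes the other chain of type I collagen. Its signals were 403 and 361 under siRNA 3488, 436 and 475 under siRNA 2600, and 339.7, 303 and 288 under the control. Both siRNAs lay above the control, siRNA 2600 highest. The log2 changes, 0.30 under siRNA 3488 (adjusted p = 0.121) and 0.56 under siRNA 2600 (adjusted p = 0.0657), did not pass. The change under siRNA 2600 was called after quantile normalization (0.59, adjusted p = 0.0410), median centring (0.64, 0.0338) and cyclic loess (0.60, 0.0422), and that under siRNA 3488 after cyclic loess (0.42, 0.0480). The second Col1a2 probe set was at 0.24 and 0.31 under siRNA 3488 and siRNA 2600 and passed in neither.

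Col3a1, the chain of type III collagen that is found in the same fibrils, gave 24439 and 28463 under siRNA 3488, 19019 and 20478.5 under siRNA 2600, and 19051, 19931 and 19209.8 under the control. Both siRNA 3488 arrays stood above the other 5, which overlapped between the groups. The change under siRNA 3488 was 0.44 ± 0.08 (adjusted p = 0.00682), close to the 0.48 median of probe sets of that brightness, and under siRNA 2600 it was 0.03. It was not called after cyclic loess (0.09) and turned to -0.03 after quantile normalization.

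Col5a2, a chain of type V collagen, which limits fibril diameter, is the neighbour of Col3a1 on rat chromosome 9 in assembly GRCr8. It gave 23533 and 26879.8 under siRNA 3488, 19688.5 and 20559 under siRNA 2600, and 18731, 19515 and 19614 under the control. The siRNA 3488 arrays again stood highest, and the siRNA 2600 arrays stood just above all 3 control arrays. The changes were 0.38 ± 0.07 under siRNA 3488 (adjusted p = 0.00826), against a band median of 0.48, and 0.06 under siRNA 2600. The second probe set of Col5a2 rose by 0.29 (adjusted p = 0.0133). The first was at 0.03 after cyclic loess and turned to -0.08 after quantile normalization, and neither passed there. Without siRNA 3488 replicate 2 it was at 0.29 (adjusted p = 0.0507).

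Fibrillar collagens did not all move up. Col5a1, the partner chain of Col5a2, was at -0.47 (adjusted p = 0.0639) by one probe set and at -0.01 by the other under siRNA 3488. The first was called lower without siRNA 3488 replicate 1 (-0.71, adjusted p = 0.0236), without siRNA 2600 replicate 1 or 2 (0.0316 and 0.0305), with the compared groups alone (0.0307) and with the replicate block (-0.42, 0.0464). Col5a3 was at -0.18 and Col11a2 at -0.33, neither of them called. In all, 5 of 11 fibrillar probe sets rose, none fell and 6 were not called, 1 more of which had an unadjusted p under 0.05 on the higher side and 1 on the lower side. Of all probe sets tested, 6.89% were called higher and 8.74% lower. Col3a1 and the first Col5a2 probe set lay in the band where 100% of all were called higher, and the second Col5a2 probe set where 81.0% were. Both Col1a1 probe sets lay where 9.72% were.

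**Figure D2:**
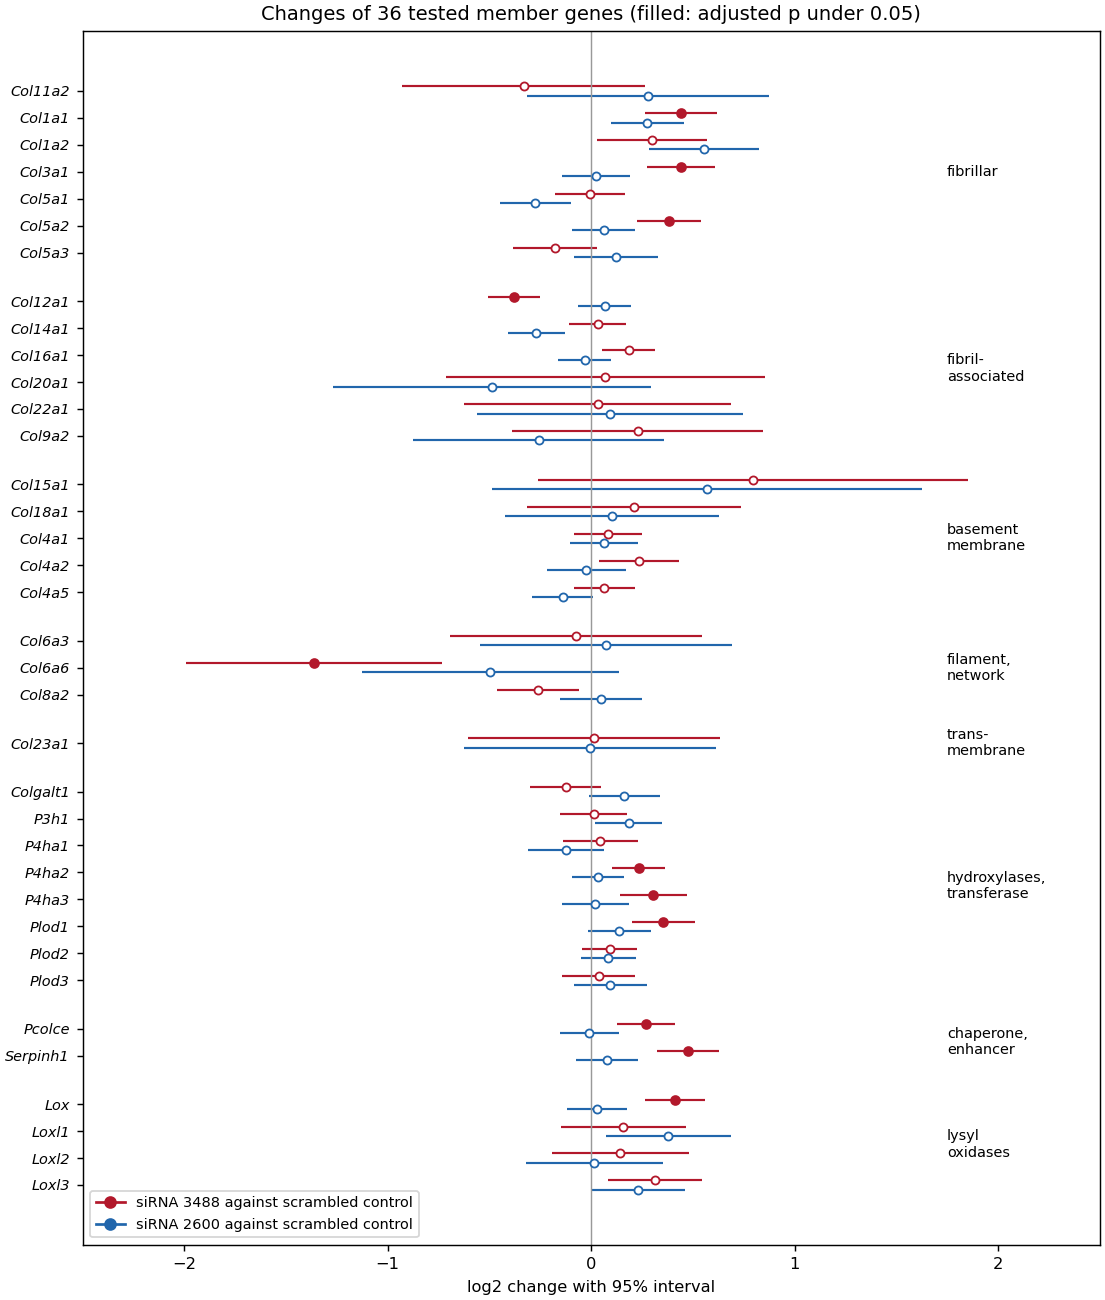
Log2 change with its 95% interval (x) for the brightest probe set of each of 36 member genes (y), ordered by role, under siRNA 3488 in red above siRNA 2600 in blue, each against the scrambled control. Filled points passed the test at an adjusted p under 0.05, and all of them belong to siRNA 3488.

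Fibril-associated collagens sit on the surface of fibrils. Col12a1, the chain of type XII collagen, fell. It gave 3306 and 3202 under siRNA 3488, 4524 and 4329 under siRNA 2600, and 4179, 4200.15 and 4308 under the control. The siRNA 3488 arrays lay below the other 5, and the siRNA 2600 arrays lay just above the control arrays. The log2 change under siRNA 3488 was -0.38 ± 0.06 (adjusted p = 0.00458) and under siRNA 2600 it was 0.07 (adjusted p = 0.647). A second probe set fell by 0.49 on the log2 scale (adjusted p = 0.00735), and the last of its probe sets was at -0.39 (adjusted p = 0.0936). The median of its signal band was -0.02, and the change was called under all 3 other scalings (-0.28 to -0.49).

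Col14a1, the chain of type XIV collagen and a near relative of Col12a1, had another order of groups. Its brighter probe set gave 5190.2 and 5255 under siRNA 3488, 4067 and 4406 under siRNA 2600, and 4901, 5193 and 5229 under the control. Here siRNA 2600 was the low group, and the siRNA 3488 and control arrays overlapped. The log2 change under siRNA 2600, -0.27, did not pass (adjusted p = 0.0824), but was called after quantile normalization (-0.34, adjusted p = 0.0173) and cyclic loess (-0.31, adjusted p = 0.0286). The dimmer Col14a1 probe set was at -0.17 under siRNA 3488 and -0.15 under siRNA 2600. In the group as a whole, 2 of 9 probe sets fell under siRNA 3488, both of Col12a1, and none rose. Over all probe sets tested 8.74% were called lower and 6.89% higher, and in the signal band of these 2 probe sets 11.5% were called lower. Col16a1 was at 0.18 (adjusted p = 0.0592).

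Col6a6, a chain of type VI collagen, which forms beaded filaments, had the largest fall of the called members. Its signals were 85.6 and 46.7 under siRNA 3488, 114 and 117 under siRNA 2600, and 158, 140.3 and 193 under the control. The groups did not overlap, with siRNA 3488 lowest and the control highest. The log2 change under siRNA 3488 was -1.36 ± 0.28 (adjusted p = 0.0127), a fall to 0.389 of the control level (95% interval 0.251 to 0.602), and under siRNA 2600 it was -0.50 (adjusted p = 0.446). The probe set is dim, so the size is imprecise. It was -1.09 when signals under the level of the filter were raised to that level, and -0.93 (adjusted p = 0.0908) without siRNA 3488 replicate 2. Without control replicate 1 the adjusted p was 0.0513. Of the other chains of this group, Col6a3 (-0.07) and Col8a2 (-0.26, adjusted p = 0.0773) did not pass.

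The basement membrane collagens, type IV with Col15a1 and Col18a1, held no call under siRNA 3488, against 6.89% higher and 8.74% lower of all probe sets tested. Their 6 probe sets lay between 0.06 and 0.80. The highest was of Col15a1, which is dim and had a 95% interval of -0.26 to 1.85. The lowest was of Col4a5, in a band of signal with a median of 0.34. Col4a1 gave 1269 and 1372 under siRNA 3488, 1367 and 1242 under siRNA 2600, and 1236, 1272 and 1232 under the control. The siRNA 3488 and control groups overlapped, and the log2 change was 0.08 (95% interval -0.08 to 0.25). Col4a2 gave 660.0 and 681 under siRNA 3488, 568 and 552 under siRNA 2600, and 542, 579.9 and 587 under the control. Its siRNA 3488 arrays stood above the rest, at a log2 change of 0.24 (adjusted p = 0.0955), called after cyclic loess (0.34, adjusted p = 0.0421). Col4a1 and Col4a2 form the common type IV trimer and lie head to head. In the RefSeq promoter table their start sites are 77 bases apart on opposite strands, and the 300-base windows of the genes share 176 bases.

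The promoter windows of Serpinh1, Col5a2, Col6a6 and Col4a1 are shown as examples of a chaperone and a collagen that rose, a collagen that fell and the shared start region of type IV collagen. They run from 250 bases before to 50 after the start, from RefSeq, build GRCr8. Capitals mark matches on either strand to CCAAT (the box of that name), to TATAAA (the TATA box), to GGGCGG (the GC box), to ACGTG (the core of hypoxia response elements) and to GAANNTTC (a heat shock element core).
Serpinh1, chr1:163062927-163063226, minus strand: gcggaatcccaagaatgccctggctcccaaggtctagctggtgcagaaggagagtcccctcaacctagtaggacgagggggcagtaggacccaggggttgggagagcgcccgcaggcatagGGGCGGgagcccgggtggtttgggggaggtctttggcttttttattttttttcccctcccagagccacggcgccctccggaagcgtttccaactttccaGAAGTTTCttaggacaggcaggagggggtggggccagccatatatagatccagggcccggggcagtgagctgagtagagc
Col5a2, chr9:55090102-55090401, minus strand: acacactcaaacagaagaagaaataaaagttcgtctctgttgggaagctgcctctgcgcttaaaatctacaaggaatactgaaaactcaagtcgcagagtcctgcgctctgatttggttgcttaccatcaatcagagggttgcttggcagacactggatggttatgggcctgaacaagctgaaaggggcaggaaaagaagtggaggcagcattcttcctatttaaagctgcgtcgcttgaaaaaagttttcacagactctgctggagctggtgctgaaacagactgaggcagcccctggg
Col6a6, chr8:115352112-115352411, minus strand: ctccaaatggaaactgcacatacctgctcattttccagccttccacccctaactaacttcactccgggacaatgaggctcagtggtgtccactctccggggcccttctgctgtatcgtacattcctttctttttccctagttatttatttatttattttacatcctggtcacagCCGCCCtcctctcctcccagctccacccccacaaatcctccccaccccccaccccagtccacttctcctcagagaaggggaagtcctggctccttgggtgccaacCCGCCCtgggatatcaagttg
Col4a1, chr16:84885347-84885646, plus strand: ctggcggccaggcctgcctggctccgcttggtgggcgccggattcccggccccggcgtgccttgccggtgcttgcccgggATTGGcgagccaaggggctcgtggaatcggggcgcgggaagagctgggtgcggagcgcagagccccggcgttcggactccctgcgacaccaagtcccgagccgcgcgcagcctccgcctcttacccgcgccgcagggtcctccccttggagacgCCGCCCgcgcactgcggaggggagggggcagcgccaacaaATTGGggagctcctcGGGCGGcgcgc

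The table held 48 windows of 45 of the 56 member genes. GGGCGG was in 30 of the 48 windows, against 33.1% of 33469 windows of all genes, and in 6 of the 7 windows of genes called under siRNA 3488. The other 4 of the 11 called genes, Col1a1, Col3a1, Col12a1 and Lox, had no entry and are in none of these counts. CCAAT was in 11 of 48 (37.5% of all) and in none of those 7, TATAAA in 5 (14.2%) and in none, ACGTG in 6 (19.3%) and in 1, and GAANNTTC in 5 (8.59%) and in 2, Serpinh1 and Plod1. In the member windows 0 matches to one motif overlapped a match to another. These are counts of letters in the windows, with no test, and the windows differ in base composition.

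Of 21 probe sets tested of the enzymes and helpers, 6 rose under siRNA 3488 and none fell, against 6.89% and 8.74% of all probe sets tested. By signal, the rises were 3 of 4 probe sets from 8192 to 16384, where 81.0% of all were called higher, 2 of 4 from 4096 to 8192 (39.4%) and 1 of 8 from 1024 to 4096 (9.72%). The counts of the brighter bands are near those shares. Serpinh1, the collagen chaperone gene, gave 13683 and 15758 under siRNA 3488, 11067.5 and 11207 under siRNA 2600, and 10314.5, 10749.8 and 10617 under the control. The siRNA 3488 arrays stood highest, and the siRNA 2600 arrays stood above all 3 control arrays by a small margin. The log2 change was 0.48 ± 0.07 under siRNA 3488 (adjusted p = 0.00394), where its band had a median of 0.34, and 0.08 under siRNA 2600 (adjusted p = 0.656). It was still called after cyclic loess (0.21, adjusted p = 0.0182), not after quantile normalization (0.10, adjusted p = 0.123), and was the only member called without an intensity trend (adjusted p = 0.0487). A dim second probe set was at 0.22 and not called.

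Pcolce, whose product enhances cleavage of the procollagen C-terminal end, gave 13749 and 14371 under siRNA 3488, 11561 and 11589.9 under siRNA 2600, and 10908, 12129.5 and 11973 under the control. The siRNA 3488 arrays stood above the others, which overlapped. The log2 change was 0.27 ± 0.07 (adjusted p = 0.0221), below the band median of 0.34, and it turned to -0.10 after quantile normalization. The call was lost without siRNA 3488 replicate 2 (0.24) or any 1 control array (0.22 to 0.30), with adjusted p between 0.0513 and 0.111.

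Prolyl 4-hydroxylases make the hydroxyproline that stabilises the triple helix. P4ha2 gave 6076 and 5728 under siRNA 3488, 5152 and 5109 under siRNA 2600, and 4922, 5111 and 5020.1 under the control, a log2 change of 0.23 ± 0.06 under siRNA 3488 (adjusted p = 0.0244). Its band had a median of 0.16, and the change was 0.06 after quantile normalization. The call was lost without either siRNA 3488 array or any 1 control array (0.19 to 0.28), with adjusted p between 0.0610 and 0.0925. A second P4ha2 probe set was at -0.13 and not called.

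P4ha3 gave 2571 and 2729.8 under siRNA 3488, 2238 and 2112 under siRNA 2600, and 2218, 2243 and 1982 under the control. The siRNA 3488 arrays stood above the other 5. The log2 change was 0.31 ± 0.07 (adjusted p = 0.0230) and was called under all 3 other scalings (0.27 to 0.40). It was lost without siRNA 3488 replicate 2 (0.26, adjusted p = 0.151), control replicate 1 (0.33, 0.0593) or control replicate 3 (0.25, 0.0711). P4ha1, the first of the 3 alpha subunits, gave 2223 and 2552 under siRNA 3488, 2261 and 1981 under siRNA 2600, and 2213, 2321 and 2393 under the control. These overlapped, with a log2 change of 0.05 (95% interval -0.14 to 0.23).

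Lysyl hydroxylases prepare the residues used in crosslinks. Plod1 gave 7224 and 7964 under siRNA 3488, 6509 and 6554 under siRNA 2600, and 5546, 6059 and 6205 under the control. All 3 groups were apart, siRNA 3488 highest. The log2 change was 0.36 ± 0.07 under siRNA 3488 (adjusted p = 0.0106), against a band median of 0.16, and 0.14 under siRNA 2600. It was 0.13 after quantile normalization and 0.18 after cyclic loess, not called in either, nor without siRNA 3488 replicate 2 (0.28, adjusted p = 0.0832). Plod2 gave 7530.4 and 7412 under siRNA 3488, 7774 and 7103 under siRNA 2600, and 7037, 6868 and 7127 under the control. Its log2 change under siRNA 3488 was 0.09 (adjusted p = 0.334), although both arrays exceeded the control arrays, and it turned to -0.15 after quantile normalization. Plod3 (0.04), P3h1 (0.01) and the 4 probe sets of Colgalt1 (-0.18 to 0.23), which adds galactose to hydroxylysine, were not called.

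Of the lysyl oxidases, which start crosslinking outside the cell, Lox rose. It gave 18377 and 20149 under siRNA 3488, 14196 and 15327 under siRNA 2600, and 14133, 14460.2 and 14835 under the control. The siRNA 3488 arrays stood above the others, which overlapped. The log2 change was 0.41 ± 0.07 (adjusted p = 0.00569), near the band median of 0.34, and it turned to -0.04 after quantile normalization. Under siRNA 2600 it was 0.03. A second Lox probe set was at 0.23 (adjusted p = 0.0674). Loxl1 (0.16), Loxl2 (0.11 and 0.14) and Loxl3 (0.31, adjusted p = 0.0667) were above 0 and not called.

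**Figure D3:**
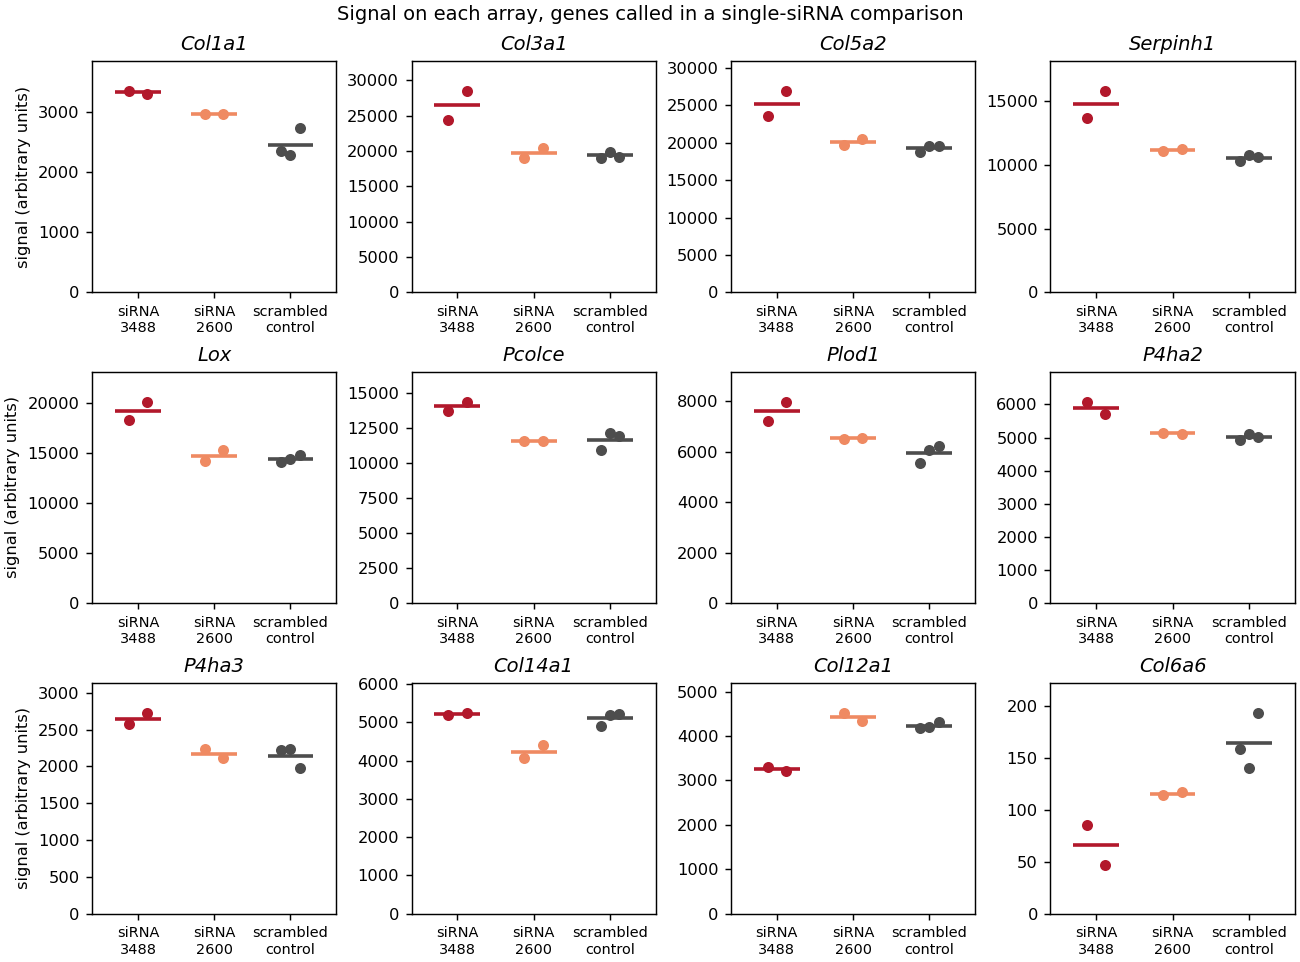
Signal in arbitrary units (y, from 0) on each array for the 12 member genes called in a single comparison of the siRNAs, brightest probe set of each, under siRNA 3488, siRNA 2600 and the scrambled control from left to right. Points are arrays and lines group means, and the siRNA 3488 points lie above all control points in 9 panels, below them in Col12a1 and Col6a6, and overlap them in Col14a1. The genes shown were chosen by their calls. Over all probe sets tested, 19.2% lay higher and 31.1% lower under siRNA 3488 without overlapping the control, so such separation was common.

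Most of the rises depended on how the arrays were scaled. Of the 14 probe sets called under siRNA 3488, 6 probe sets of 4 genes (Col1a1, P4ha3, Col12a1 and Col6a6) were called also after quantile normalization, median centring and cyclic loess. The count of calls was 7 after quantile normalization, 3 higher and 4 lower, and 10 after cyclic loess, 6 higher and 4 lower. After median centring it was 18, 15 higher and 3 lower. Quantile normalization left the median member change at 0.01. Col4a5, a type IV chain named after its values were seen, was at 0.06 and not called as deposited, and was called lower at -0.27 after quantile normalization and at -0.18 after cyclic loess.

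**Figure D4:**
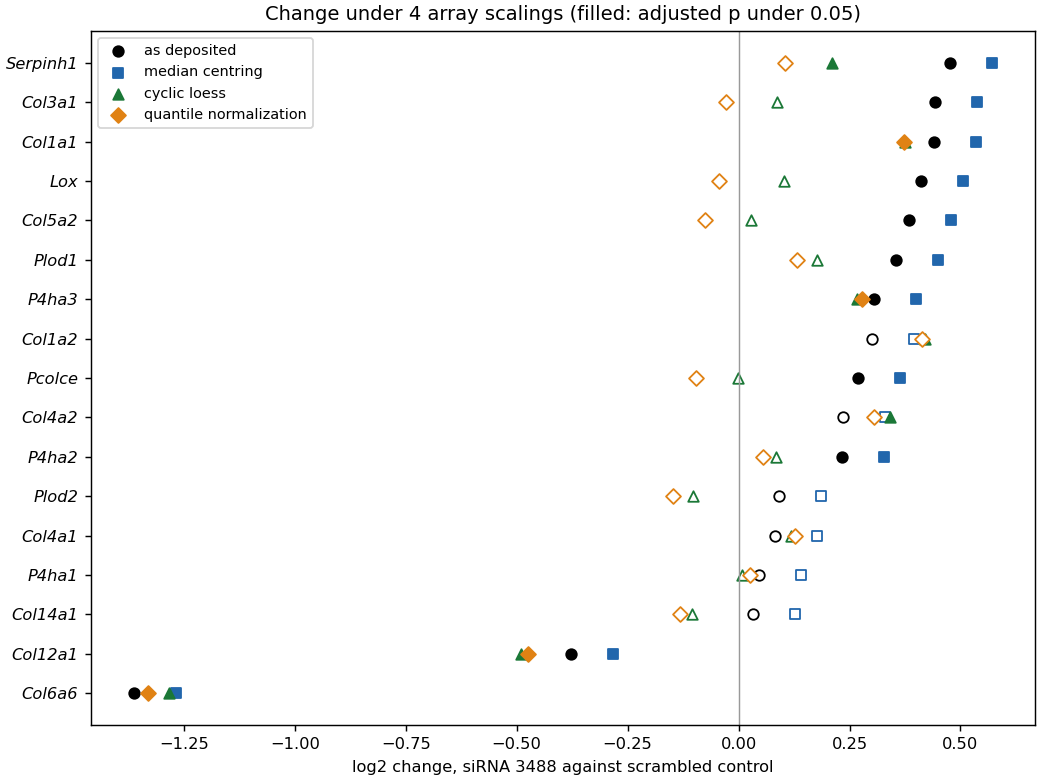
Log2 change under siRNA 3488 against the scrambled control (x) of 17 member genes (y) under 4 scalings of the arrays, filled where the adjusted p was under 0.05. Col1a1, P4ha3, Col12a1 and Col6a6 are filled in all 4, while Col3a1, Col5a2, Lox and Pcolce cross 0 after quantile normalization. Col14a1 and Plod2, not called as deposited, cross 0 there as well. Pcolce, Col14a1 and Plod2 also cross 0 after cyclic loess.

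With siRNA 2600 against the control, 0 of 51 member probe sets were called in limma, and 9 had an unadjusted p under 0.05. Of all probe sets tested, 0.548% were called higher and 0.483% lower. The median member change was 0.07, against -0.02 over all probe sets tested. The count was 3 after quantile normalization (Col1a2 higher, Col4a5 and Col14a1 lower), 2 after cyclic loess and 1 after median centring.

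The direct test of siRNA 3488 against siRNA 2600 called 8 member probe sets, 6 higher and 2 lower, while 2.84% of all probe sets tested were called higher and 3.17% lower. The rises were those of Col3a1 (0.42), Serpinh1 (0.40), Lox (0.38), Col5a2 (0.32), Col14a1 (0.30) and Pcolce (0.28), with adjusted p between 0.0204 and 0.0474. Each was by 1 probe set. The other probe sets of Lox (0.06, adjusted p = 0.706), Serpinh1 (0.15, 0.766), Col5a2 (0.22, 0.0854) and Col14a1 (-0.02, 0.903) were not called. The falls were both of Col12a1, at -0.44 (adjusted p = 0.0100) and -0.62 (adjusted p = 0.0115). For the called Col14a1 probe set the siRNA 2600 arrays were the low ones. Col1a1 (0.16, adjusted p = 0.287) and Col6a6 (-0.87, adjusted p = 0.127) did not pass. In the brightest band 80.5% of all probe sets were called higher in this comparison, against 42.5% between 8192 and 16384. After quantile normalization or cyclic loess, 2 calls were left, both of Col12a1. The count was 0 without siRNA 3488 replicate 2 or siRNA 2600 replicate 1, and 2, 4 and 5 without control replicates 2, 3 and 1. This comparison shares its siRNA arrays with the comparisons against the control, and those 2 share the control arrays.

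Taking both siRNAs as 1 group of 4 arrays against the control, 0 member probe sets were called in limma and 11 had an unadjusted p under 0.05. Of all probe sets tested, 0.102% were called higher and 0.043% lower. Col1a1 was at 0.36 (adjusted p = 0.103) and Col1a2 at 0.43 (adjusted p = 0.141), and the 4 siRNA arrays exceeded the 3 control arrays for both. Without siRNA 2600 replicate 1 the count was 3, 2 of them of Col1a1. The count over all probe sets tested rose there as well, from 27 with all arrays to 1304. A test of the average of both effects, with 3 groups kept apart, called 8 members, of which 7 were higher and 1 lower. Over all probe sets tested it called 1378. Both member counts therefore rose together with the calls over all probe sets.

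Of the wider collagen pathway, 43 probe sets of 30 genes were tested, with 9 called higher and none lower under siRNA 3488. They had a median log2 change of 0.03, against -0.06 over all probe sets tested, of which 6.89% were called higher and 8.74% lower. All 9 calls were of bright probe sets, 4 of the 6 with a mean signal of 4096 to 8192 and 5 of the 5 from 8192 to 16384, where 39.4% and 81.0% of all probe sets tested were called higher. Partners of procollagen in the endoplasmic reticulum had 4 of 14 called, P4hb, the beta subunit of prolyl 4-hydroxylase (0.38), Ppib, a prolyl isomerase (0.41), and Sparc, a collagen-binding protein, by both of its probe sets (0.46 and 0.42). Export genes had 2 of 12, Sec13, a COPII coat subunit (0.32), and Kdelr2, the receptor that retrieves endoplasmic reticulum proteins (0.67). Of 6 probe sets of collagen receptors, 1 of Itgb1, the beta 1 integrin, was called (0.36, with the other at 0.04). Of 5 of collagen-degrading enzymes, 1 of Mmp14, a membrane collagenase (0.47, with the other at 0.02), and Ctsb, a lysosomal protease (0.21), were called. None of 3 probe sets each of the procollagen proteinases and proline synthesis was. With siRNA 2600 0 of the 43 were called in limma, while siRNA 3488 against siRNA 2600 called 7, all higher.

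The other 29 member probe sets, which include every probe set of 20 genes such as Col2a1, Col4a4, Col6a1, Col6a2, Col7a1 and Crtap, were below the filter, with signals of at most 101.6. Just outside it were Col6a5 (mean log2 signal 5.88) and Col11a1 (5.51), and just inside Col6a3 (6.18) and Col9a2 (6.38).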

How the data were processed

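Values were deposited as intensity, a linear number for each probe set of each array. The authors used GCOS 1.4, according to the submitters' processing notes, and its background, summary and scaling settings and its detection calls are not stated in these sources. The 2% trimmed mean was 500.1 to 500.2 on every array, which shows a common scaling. The number of arrays limits precision.

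Values below 1 were raised to 1 before log2. Without the 57 control probe sets, the upper 60% by mean log2 signal (6.09 or more; 18625 probe sets) entered limma 3.58.1 in R 4.3.3 (lmFit, eBayes with an intensity trend, Benjamini-Hochberg). Single siRNAs came from a fit of 3 groups over 7 arrays and both siRNAs together from a fit of 2 groups, each tested on simulated data. There a 1.5-fold change was recovered for 22% of changed probe sets under siRNA 3488 and 30% under siRNA 2600. It was recovered for 28% between the siRNAs and 48% for both siRNAs, so changes of that size can go uncalled. The simulated data held 50 changed probe sets at each fold size, while 2911 probe sets were called under siRNA 3488. Recovery in the real data may therefore differ. Names come from the platform annotation, and neighbours and promoters from RefSeq (GRCr8).

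Members, lists and tests were chosen with earlier results of these data known. Values on each array are given for the brightest probe set of every gene called in a single comparison, and always for Col1a1, Col1a2, Col3a1, Col4a1, Col4a2, Serpinh1, Lox, P4ha1 and Plod2. Alternatives covered scaling, filter, floor, trend, 1 probe set per gene, a replicate block and leaving out each array.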

Additional observations from a re-analysis of the deposited data

Results flagged for a closer look

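A difference between the effects of the siRNAs singled out 8 member probe sets, by the test of siRNA 3488 minus siRNA 2600 itself. They were 6 higher and 2 lower, while 2.84% of all probe sets tested were called higher and 3.17% lower. Col12a1 was lower under siRNA 3488 by both called probe sets, with log2 differences of -0.62 and -0.44, where siRNA 3488 lay below the control and siRNA 2600 slightly above it. Higher under siRNA 3488 were Col3a1 (0.42), Serpinh1 (0.40), Lox (0.38), Col5a2 (0.32) and Pcolce (0.28). By these probe sets siRNA 2600 lay within 0.08 of the control. They lay in bands of signal where 42.5% (8192 to 16384) and 80.5% (above 16384) of all probe sets tested were called higher between the siRNAs. The second Lox probe set was at 0.17 under siRNA 2600 and at 0.06 between the siRNAs (adjusted p = 0.706), called in neither. Nor were the second probe sets of Serpinh1 (0.15) and Col5a2 (0.22) called between the siRNAs. For the called probe set of Col14a1 (0.30) siRNA 2600 was low and siRNA 3488 close to the control. The second Col14a1 probe set was at -0.17 under siRNA 3488 and -0.15 under siRNA 2600. It was at -0.02 between them (adjusted p = 0.903). The Col12a1 differences were called under all 3 other scalings. None of the 6 higher calls was kept after quantile normalization or cyclic loess. No group had the 4 arrays needed to look for an array far from the others.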

How the results depend on the processing

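Counts are member probe sets called in limma. Under siRNA 3488 against the control the count of 14 was 7 after quantile normalization and 1 with no intensity trend, and without 1 array it was 6 (siRNA 3488 replicate 2) to 17 (either siRNA 2600 array). Under siRNA 2600 the count of 0 was 3 after quantile normalization, 1 after median centring, 2 after cyclic loess, 1 with 1 probe set per gene and 0 without any 1 array. For siRNA 3488 against siRNA 2600 the count of 8 was 2 after quantile normalization or cyclic loess, 5 after median centring, 3 with no filter, 0 with no trend, 0 with the compared groups alone and 0 to 8 without 1 array. For both siRNAs the count of 0 was 1 after quantile normalization, 8 as the mean of 2 effects, and 0 to 3 without 1 array. With the replicate block the counts were 16, 0, 12 and 0, against 2721, 67, 1561 and 0 over all probe sets tested. The counts over all probe sets tested moved as well. Under siRNA 3488 they went from 2911 to 1837 after quantile normalization and 591 with no trend. Under siRNA 2600 they went from 192 to 264 after quantile normalization. Between the siRNAs they went from 1119 to 573 after quantile normalization, 695 after cyclic loess, 5 with no trend and 29 with the compared groups alone. For both siRNAs they went from 27 to 50 after quantile normalization, 1378 as the mean of 2 effects and 0 to 1304 without 1 array. Same-numbered arrays deviated together by a correlation of -0.05 to 0.16. In a group of 2 arrays the deviations from the group mean mirror each other. These values therefore cannot decide whether the numbers pair the arrays.

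Some turns were of called changes. In the siRNA 3488 comparisons with the control and with siRNA 2600, quantile normalization turned Col3a1 (0.44 and 0.42 as deposited), Lox (0.41 and 0.38), Col5a2 (0.38 and 0.32) and Pcolce (0.27 and 0.28). Under siRNA 3488 quantile normalization gave Pcolce -0.0955, Col14a1 -0.133, Col3a1 -0.0292, Col5a2 -0.0759, Lox -0.0448 and Plod2 -0.148, and cyclic loess gave Pcolce -0.0010, Col14a1 -0.106 and Plod2 -0.102. Under siRNA 2600 quantile normalization gave Serpinh1 -0.0108, Col3a1 -0.0282, Lox -0.0285, P4ha2 -0.0281 and P4ha3 -0.000634, median centring gave Col4a2 0.0620 and Pcolce 0.0758, cyclic loess gave Col4a2 0.00317, Col3a1 -0.0565, Col5a2 -0.0201, Lox -0.0455 and P4ha2 -0.00863, and the replicate block gave Pcolce 0.00909 and P4ha3 -0.0368. For siRNA 3488 against siRNA 2600 quantile normalization gave Pcolce -0.00376, Col3a1 -0.00102, Col5a2 -0.0868, Lox -0.0163 and Plod2 -0.149, and cyclic loess gave Plod2 -0.136. Without 1 array the ranges that crossed 0 were P4ha1 -0.0540 to 0.145 under siRNA 3488, Col4a1 -0.00539 to 0.133, P4ha3 -0.0368 to 0.0617, Col3a1 -0.0281 to 0.0785, Lox -0.0279 to 0.0827 and Pcolce -0.0581 to 0.0185 under siRNA 2600, and Plod2 -0.0573 to 0.0728 and Col4a1 -0.0510 to 0.0878 between the siRNAs. The causes were not tested.

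Of 305 values of named genes in each comparison other than both siRNAs, 256, 278 and 229 kept their direction and side of the threshold. Without 1 array an arm of 1 or 2 arrays is left, and a lone array is taken to vary like the others. Signals below the filter were not tested, except in the alternative with no filter.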

Other observations

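Of the 29 member probe sets below the filter on low signal, 5 did not overlap between the 4 siRNA arrays and the 3 control arrays, 3 higher and 2 lower. Among the brighter probe sets that were tested, 6.66% were higher and 11.0% lower without overlap. That share was not taken below the filter, so the count is not read as a result about these members. The values are too low to give a direction. Col2a1, the chain of cartilage collagen, named after its values were seen, shows how its probe sets differ at such signals. One read 40.3 and 23.1 under siRNA 3488, 15.1 and 31.3 under siRNA 2600, and 2.78, 3.48 and 4.49 under the control. Another read 46.3 and 8.21, 22.3 and 12.3, and 15, 29.0 and 42.4 in the same groups. The last of its probe sets had the order of the first, with 25.4 and 31.4, 22.9 and 33.3, and 3.28, 6.19 and 10.5. In the limma fit with no filter the first was called higher under siRNA 3488 (log2 3.12, adjusted p = 0.0347).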
